A study of Mus musculus with 4 samples.

Results

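The genes described here are Psmb8, Psmb9, Psmb10, Psme1, Psme2, Tap1, Tap2, Tapbp, Nlrc5 and Erap1. They encode inducible subunits and an activator of the proteasome, proteins that transport, trim and load peptides for MHC class I, and, as Nlrc5, a transactivator of MHC class I genes. The genes were chosen by name, and all 10 were among the 11049 genes that the angiotensin II, salt-sensitive and control tables have in common. Their UMIs, tags that each mark a single captured transcript, were summed in endothelial cells and in all other cells of each library. A cell was counted as endothelial where Pecam1, Cdh5, Kdr and Tie1 together had at least 3 UMIs and at least 12 per 10000 UMIs of that cell. None of the 10 genes took part in that rule.

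All libraries came from kidneys of C57BL/6J mice aged 10 to 14 weeks, with no transgene or deletion named for any group. The A2 HTN group had hypertension brought on by angiotensin II, a hormone that constricts vessels, and its controls were given saline. The SS HTN group had salt-sensitive hypertension, and its controls ate a normal diet. The kidneys of all mice in a group were pooled before dissociation, and cells were captured with antibodies to CD31 (the product of Pecam1) and then to podoplanin, so each group is 1 library. Doses, durations, sexes and numbers of mice are not given in the sources used here. The control table holds cells with 2 barcode endings and no source used here says which ending is the saline group, so they are called control library 1 and control library 2 and kept apart. With 1 library per group no difference could be tested, and every interval below is a 95% interval that covers counting error only.

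Cells cut their proteins with the proteasome, and some of the resulting peptides are carried into the endoplasmic reticulum, placed on MHC class I molecules and shown to CD8 T cells at the surface. Interferons switch the catalytic subunits of the standard proteasome for inducible ones, which changes the peptides produced, and raise the peptide transporter and MHC class I genes at the same time. Endothelial cells are the first kidney cells that circulating T cells meet, and they are known to carry this machinery in the resting state.

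The libraries differed in depth and in how many endothelial cells they held, and control library 1 had the fewest endothelial cells. The 4 libraries held 2008 to 3284 cells and 1727731 to 7479337 UMIs. Endothelial cells numbered 1223 (43.1% of cells, median 4792 UMIs) under angiotensin II and 1517 (46.2%, median 2371 UMIs) under salt-sensitive hypertension. There were 126 in control library 2 (6.27%, median 2811 UMIs) and 19 in control library 1 (0.790%, median 1995 UMIs). The 19 cells held 38 UMIs of the 10 genes, so values for control library 1 endothelium are given but carry little. Most captured cells were therefore not endothelial by the rule above, and the other cells were led by proximal tubule markers, with 9478 to 11375 CPM over 8 markers. CPM is the count of a gene or list scaled to a common library total. Of 7 lymphatic markers, 2 to 4 were in the table of each library, and among those Flt4 led in the endothelial cells, while Prox1, Pdpn and Reln had 0 UMIs in the endothelial cells of both control libraries. Between libraries 7 cell barcodes were shared in all. No doublet caller was run.

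The genes lie in a few clusters of the mouse genome. On chromosome 17, within the MHC region, are Psmb9 (34182030 to 34187330, minus strand), Tap1 (34187556 to 34197225), Psmb8 (34198195 to 34201454) and Tap2 (34204479 to 34216321), with Tapbp nearby (33919478 to 33929290). Psmb9 and Tap1 run in opposite directions from starts 225 bases apart. Psme1 (55578494 to 55581527) and Psme2 (55587440 to 55591101, minus strand) are neighbours on chromosome 14. Psmb10 (105935728 to 105938392, minus strand) and Nlrc5 (94434335 to 94527272) are both on chromosome 8, and Erap1 (74639573 to 74693205) is on chromosome 13. All positions are those of RefSeq on GRCm38.p6.

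The stretches printed next hold a short letter pattern to which interferon-activated factors are known to bind, as found in RefSeq windows around the start of each gene. The core of the interferon-stimulated response element, read by IRF factors, was searched as GAAA, any 2 bases and GAAA, on either strand. Capitals mark the match, and both are written along the gene's plus strand.
Psme1: agctgtgcTTTCGCTTTCccttcccg
Erap1: accttcacTTTCACTTTCggtcccgg
They lie at chr14:55578495-55578520 and chr13:74639841-74639866. Windows were at hand for 8 of the 10 genes. The motif was in windows of 2 of the 8 genes, in those of 3.99% of all 27025 mouse genes and in 3.44% of all 32851 windows. These are matches of letters in a short window, and the data do not measure binding.

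All 10 genes were higher in endothelial cells than in other cells of the same library in the angiotensin II, salt-sensitive and control library 2 cells, and 8 of 10 in control library 1. In control library 1 only 5 of the 10 intervals of the ratio lay above 0, and Erap1, Tap2 and Tapbp rested on 2, 1 and 4 endothelial UMIs. The median of all genes lay below 0, at log2 ratios of -0.29, -0.27, -0.40 and -0.31 (angiotensin II, salt-sensitive, control library 2 and control library 1). Summed over the 10 genes, the endothelial level was 2656 CPM (2613 to 2699) for the angiotensin II library, 1850 (1808 to 1893) for salt-sensitive, 1106 (783 to 1518) in control library 1 and 2562 (2396 to 2737) in control library 2. In the other cells it was 560, 510, 234 and 460 CPM in the same order. The endothelial sum of every library thus lay above the other-cell sum of every library. After thinning each cell to 1000 UMIs, at least 1 UMI of the 10 genes was found in 86.8% (angiotensin II), 79.8% (salt-sensitive) and 87.4% (control library 2) of endothelial cells, against 43.8% of the 16 deep enough cells of control library 1. Without thinning the shares were 98.0%, 94.7%, 96.0% and 57.9%, with control library 1 last. Among thinned other cells the shares in this order were 31.5%, 33.7%, 29.4% and 19.5%, from cells whose median depth before thinning was 863, 1005, 536 and 970 UMIs.

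**Figure D1:**
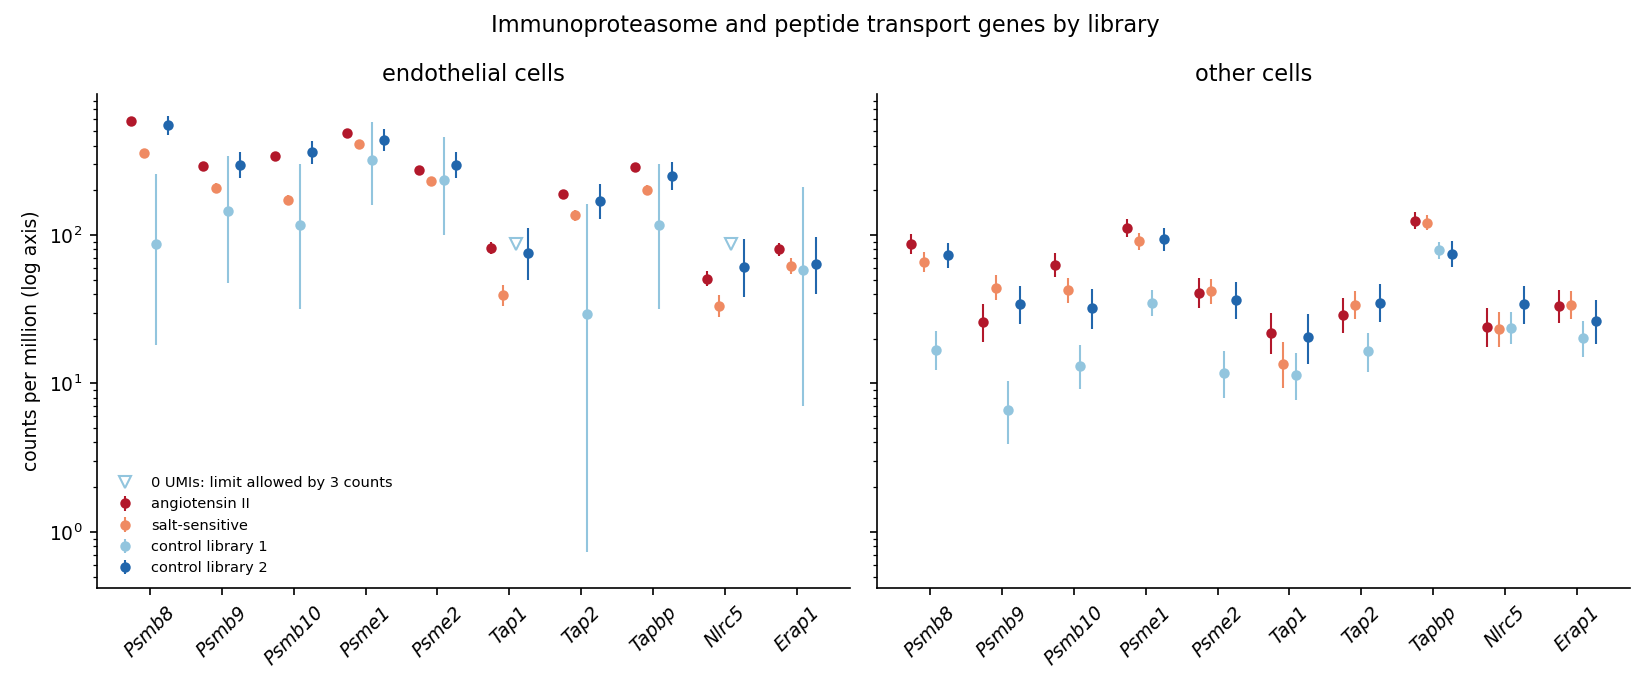
Level of each gene in endothelial cells (left) and other cells (right) of the 4 libraries, in CPM on a log axis, with 95% Poisson intervals of the counts. The 2 hypertension libraries and control library 2 lie above their own other cells for all 10 genes, while control library 1 endothelium rests on 38 UMIs, with Tap1 and Nlrc5 at 0 (open triangles).

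The size of this gap differed among the genes. As log2 ratios of CPM plus 5, the median endothelial over other value was 2.22 for angiotensin II, 1.88 for salt-sensitive and 2.14 for control library 2, where the median of all genes was -0.29, -0.27 and -0.40. Among cells with under 1% tubule markers the medians were smaller, at 1.08, 0.41 and 1.07. Of the 10 genes, 9, 7 and 9 were at 1 or more, against 17.2%, 15.7% and 19% of all genes. In control library 1 it was 6 of 10, against 17.7%, with a median of 1.71. That median turned negative with cells thinned to 1000 UMIs (-1.20, over 6 genes) and with median-of-ratios scaling (-0.0068). The highest value in each of the other 3 libraries was that of a catalytic subunit, with Psmb9 at 3.26 (3.08 to 3.94) in angiotensin II, Psmb8 at 2.36 (2.21 to 2.69) in salt-sensitive and Psmb10 at 3.30 (2.99 to 4.02) in control library 2. Psme2, at 2.60 and 2.34, was above Psmb10, at 2.36 and 1.90, in the angiotensin II and salt-sensitive cells. Nlrc5, the transactivator of MHC class I genes, had the smallest gap in all 3, at 0.94 (0.62 to 1.56), 0.44 (0.06 to 0.99) and 0.75 (0.02 to 1.61).

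Seen the other way round, several genes sat in the other cells at about the fraction shown by endothelial markers. Emcn, Eng, Egfl7, Flt1 and Tek had 14.3% to 22% of their endothelial level in the other cells of the angiotensin II library, 18.7% to 26.7% in those of the salt-sensitive library and 6.46% to 11.2% in control library 2. Cldn5 stood apart at 147%, 54.2% and 20.4%. Psmb8 was at 15%, 18.3% and 13.3%, and Psme2 at 14.9%, 18.0% and 12.3%, close to that range in the hypertension libraries. Tapbp was at 43.8% (38 to 50.3), 59.8% (52.2 to 68.5) and 29.7% (22.1 to 40.0), and Erap1 at 41.6%, 55.1% and 41.0%. The loading and trimming genes and Nlrc5, at 47.5%, 69.9% and 56.0%, therefore lay above those 5 markers in each of the 3 libraries. The other cells can also include endothelial cells too shallow to pass the rule. A UMI of a rule gene, or at least 2 UMIs of the markers above, was found in 54.0% of angiotensin II other cells. For salt-sensitive and control library 2 other cells these shares were 64.3% and 20.6%. How much of the other cells' signal is free RNA, endothelial doublets or such missed cells was not tested.

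Among the catalytic subunits, which cut the peptides, endothelial levels were lowest in the salt-sensitive library of the 3 that could be read well. Psmb8, which replaces Psmb5 and carries the chymotrypsin-like activity, stood at 583 CPM (563 to 603) in angiotensin II, 359 (340 to 378) in salt-sensitive, 87.3 (18.0 to 255) in control library 1 and 548 (472 to 632) in control library 2 endothelial cells. Psmb9, which replaces Psmb6, stood at 290 (276 to 304), 207 (193 to 222), 146 (47.3 to 340) and 297 (242 to 361) CPM. Psmb10, which replaces Psmb7, stood at 342 (326 to 357), 172 (159 to 185), 116 (31.7 to 298) and 361 (301 to 431) CPM. The ratio of angiotensin II over salt-sensitive had an interval above 0 for all 3 genes, as it had for 17.4% of all genes. That of salt-sensitive over control library 2 had one below 0 for all 3, as it had for 7.37% of all genes. In cells led by capillary markers, described further below, the log2 ratios of Psmb9 were 0.22 and -0.25 in these 2 comparisons. In thinned cells 30.0% (angiotensin II), 15.8% (salt-sensitive) and 35.3% (control library 2) of endothelial cells had a UMI of Psmb10, against 4.73%, 4.04% and 4.85% of other cells.

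The PA28 activator, a ring of Psme1 and Psme2 that opens the proteasome and favours release of short peptides, differed less between libraries. Psme1 stood at 484 CPM (466 to 502) in angiotensin II, 409 (390 to 430) in salt-sensitive, 320 (160 to 573) in control library 1 and 437 (370 to 513) in control library 2 endothelial cells. Psme2 stood at 273, 232, 233 and 297 CPM in the same order. Psme2 has a close copy, Psme2b, with 126 UMIs over all angiotensin II cells and 92 over all salt-sensitive cells against 1580 and 1020 for Psme2, and the assignment of reads that fit both was not given in the sources used here. Psme1 overlaps Emc9 in the annotation, Erap1 overlaps Cast, and Tapbp and Nlrc5 overlap noncoding genes, so a part of their counts could belong to the neighbour.

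The transporter, formed by Tap1 and Tap2, moves peptides into the endoplasmic reticulum. Tap1 stood at 81.6 CPM (74.2 to 89.4; 450 UMIs) in angiotensin II, 39.1 (33.2 to 45.8; 155 UMIs) in salt-sensitive and 75.8 (49.5 to 111; 26 UMIs) in control library 2 endothelial cells. In control library 1 it had 0 UMIs, which allows up to 87.3 CPM. Tap2 stood at 188 CPM (177 to 200), 136 (125 to 148) and 169 (128 to 219) in those 3 libraries and at 29.1 CPM, from 1 UMI, in control library 1. The interval of Tap1 in the salt-sensitive cells lay below both others, while for Tap2 the salt-sensitive and control library 2 intervals overlapped.

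Further along the path, Tapbp, the tapasin that bridges the transporter and empty MHC class I molecules, stood at 285, 201, 116 and 251 CPM in angiotensin II, salt-sensitive, control library 1 and control library 2 endothelial cells. Erap1, the aminopeptidase that trims peptides to length, stood at 79.7 (72.5 to 87.6), 61.6 (54.1 to 69.8), 58.2 (7.05 to 210) and 64.1 (40.2 to 97.1) CPM. Nlrc5 stood at 50.7 (45 to 57.0), 33.3 (27.9 to 39.5) and 61.2 (37.9 to 93.6) CPM, and had 0 UMIs in control library 1. For Erap1 all intervals of the salt-sensitive and both control libraries overlapped.

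Between the hypertension models, every one of the 10 genes was higher in angiotensin II than in salt-sensitive endothelial cells. The median log2 ratio was 0.48, and the median of all 10697 genes compared was -0.03. All 10 lay above 0, as did 45.7% of all genes, and all 10 intervals excluded 0, as did 17.4% of all genes on that side. At 0.5 or more were 4 of the 10, namely Tap1, Psmb10, Psmb8 and Nlrc5, against 5.27% of all genes. Psmb10 was 1.99-fold higher, a log2 ratio of 0.97 (0.86 to 1.12), and Tap1 was 2.08-fold higher, at 0.97 (0.79 to 1.33). Psmb8 followed at 0.69 (0.61 to 0.79) and Nlrc5 at 0.54 (0.30 to 0.92). Next came Tapbp at 0.49 (0.38 to 0.62), Psmb9 at 0.47 (0.36 to 0.61) and Tap2 at 0.46 (0.32 to 0.63). The smallest were Erap1 at 0.35 (0.14 to 0.60), Psme1 at 0.24 (0.15 to 0.33) and Psme2 at 0.23 (0.11 to 0.35).

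Depth and composition moved along with this difference. The angiotensin II endothelial cells were deeper, with a median of 4792 against 2371 UMIs, and with all cells thinned to 1000 UMIs the median log2 ratio was 0.41. Proximal tubule markers summed to 567 CPM in angiotensin II and 885 CPM in salt-sensitive endothelial cells, all 8 being present in both, and cells with under 1% tubule markers gave a median of 0.48. Leukocyte markers summed to 32.7 and 24.0 CPM in the endothelial cells of these libraries, from the 6 and 5 of 12 markers in their tables and led by Fcer1g, and leaving out cells with 2 or more such UMIs gave 0.49. The 6 further endothelial markers, which the rule did not use, summed to 10072 CPM in angiotensin II, 7623 in salt-sensitive, 4984 in control library 1 and 10084 in control library 2 endothelial cells, and the summed 10 genes were likewise lowest in control library 1 and next lowest in the salt-sensitive library. The part of these marker differences in the result was not tested.

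Against control library 2, the angiotensin II and salt-sensitive libraries gave different pictures, and both ratios share those 126 control cells. Angiotensin II endothelial cells were close to the control, with a median of 0.09, no gene past 0.5 in either direction (13.8% of all genes lay at 0.5 or more and 10.9% at -0.5 or less) and no interval that excluded 0 (4.75% of all genes had one above 0 and 5.98% one below 0). The values ran from -0.25 (-0.91 to 0.44) for Nlrc5 to 0.29 (-0.30 to 1.0) for Erap1, with Psmb8 at 0.09 (-0.12 to 0.31) and Psmb10 at -0.08 (-0.34 to 0.19). Salt-sensitive endothelial cells lay below the control for all 10 genes, with a median of -0.43 while the median of all genes was 0.04. At -0.5 or less were 5 of the 10, against 12.1% of all genes, and 6 intervals lay below 0, against 7.37%. The first count was 3 with a mean over cells and 3 in cells led by capillary markers. Psmb10 was at -1.05 (-1.35 to -0.78), Tap1 at -0.87 (-1.56 to -0.29), Nlrc5 at -0.79 (-1.55 to -0.14), Psmb8 at -0.60 (-0.83 to -0.38) and Psmb9 at -0.51 (-0.82 to -0.21). Psme2 was at -0.35 (-0.66 to -0.05), while Tapbp and Tap2, both at -0.31, Psme1 at -0.09 and Erap1 at -0.05 had intervals that held 0.

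**Figure D2:**
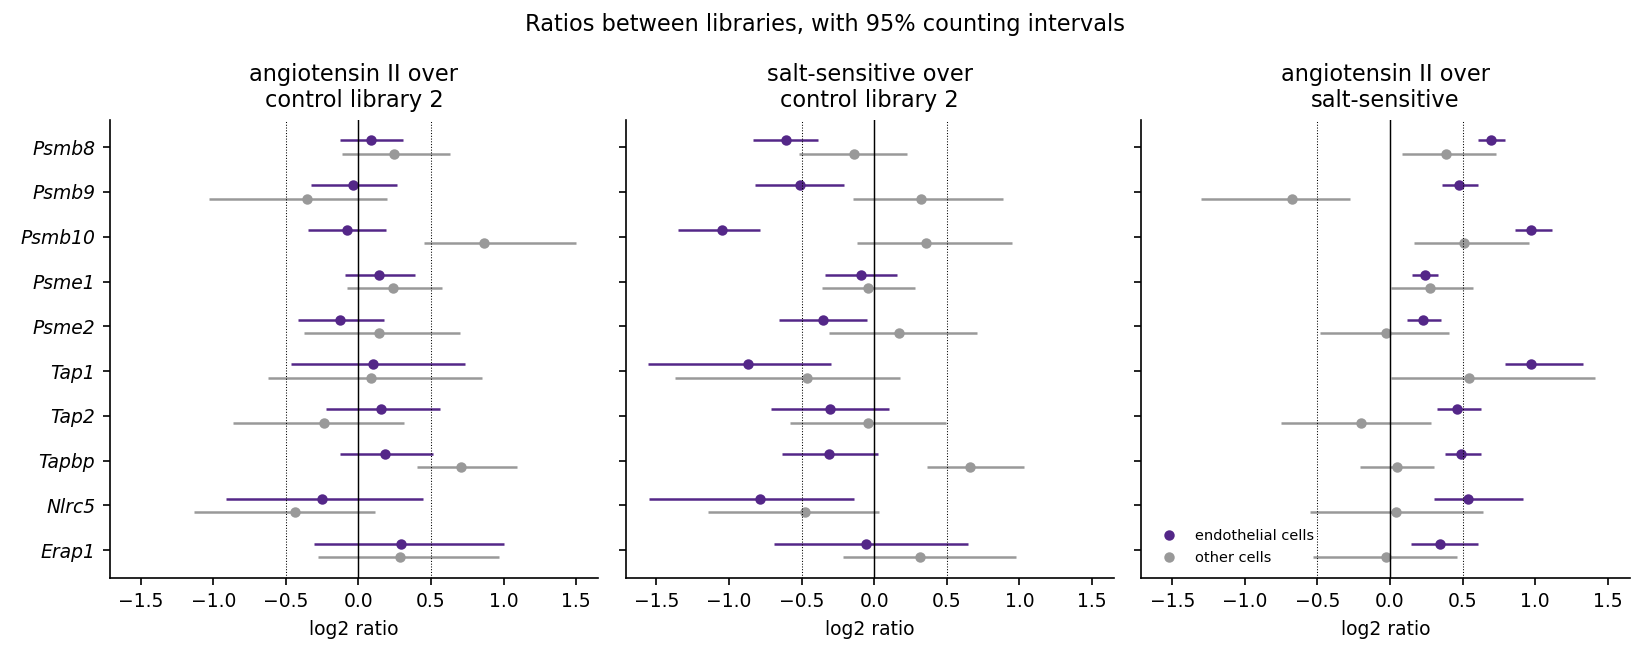
Log2 ratio of CPM plus 5 for each gene in 3 comparisons, with points for endothelial cells (purple) and other cells (grey), bars for 95% counting intervals of the plain ratio, and dotted lines at -0.5 and 0.5. In endothelial cells all 10 points lie right of 0 for angiotensin II over salt-sensitive and left of 0 for salt-sensitive over control library 2.

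Control library 1 offered no usable comparison in endothelium. The median log2 ratio was 1.38 for angiotensin II and 0.65 for salt-sensitive endothelial cells over control library 1, and 0.78 and 0.42 where Tap1 and Nlrc5, at 0 UMIs, were set at the limit of 3 counts. At 0.5 or more were 8 and 6 of the 10 genes, but 41.1% and 40% of all genes also passed that fold. Intervals that excluded 0 were found for 3 genes (Psmb8, Psmb10 and Tap2; 3.41% of all genes lay above 0) and for 1 gene (Psmb8; 2.71%). Its 19 endothelial cells also held 5158 CPM of proximal tubule and 2985 CPM of distal nephron markers, against 973 and 218 CPM in control library 2. The part of that tubule RNA in the ratios was not tested.

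The switch from standard to inducible catalytic subunits can be read as a share within each pair, which does not depend on how libraries are scaled. A share sets UMIs of different genes side by side, and capture may differ between them, so it is compared between libraries and not with an even split. For the 3 pairs together, inducible subunits gave 71.2% (70.3 to 72.2) of the UMIs in angiotensin II, 62.4% (61.0 to 63.8) in salt-sensitive, 60.0% (36.1 to 80.9; 20 UMIs) in control library 1 and 69.1% (65.2 to 72.8) in control library 2 endothelial cells. In other cells the shares were 51.7%, 49.8%, 23.7% and 49.5%. Over all endothelial cells, the salt-sensitive share thus lay below those of angiotensin II and control library 2 by more than the counting intervals. It also lay above the other-cell share of every library. Among cells led by capillary markers the gaps were smaller, as given for each pair below.

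Each pair followed this order in part. Psmb8 made up 76.4% (75.1 to 77.7) of Psmb8 and Psmb5 in angiotensin II, 67.2% (65.2 to 69.2) in salt-sensitive and 72.9% (67.0 to 78.2) in control library 2 endothelial cells. Psmb10 made up 77.0% (75.3 to 78.7), 66.8% (63.8 to 69.7) and 79.0% (71.8 to 85.1) of Psmb10 and Psmb7. Psmb9 made up 58.2% (56.3 to 60.0), 52.9% (50.4 to 55.4) and 55.4% (47.9 to 62.7) of Psmb9 and Psmb6. For Psmb8 and Psmb9 the control library 2 interval overlapped both others, and for Psmb10 only that of angiotensin II. Among cells led by capillary markers, a larger part of the angiotensin II than of the salt-sensitive endothelium, the shares of these libraries lay closer together. They were 77.4% and 70.5% for Psmb8, 59.2% and 58.9% for Psmb9 and 77.8% and 71.5% for Psmb10. In capillary-led control library 2 cells they were 75.1%, 57.6% and 79.3%, so the salt-sensitive share of Psmb9 was there above that of control library 2. The standard partners themselves had smaller ratios between the hypertension libraries than the inducible subunits that replace them. Their log2 ratios of angiotensin II over salt-sensitive were 0.04 (-0.10 to 0.18) for Psmb5, 0.17 (0.04 to 0.31) for Psmb6 and 0.24 (0.06 to 0.46) for Psmb7. The intervals of Psmb6 and Psmb7 lay above 0.

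**Figure D3:**
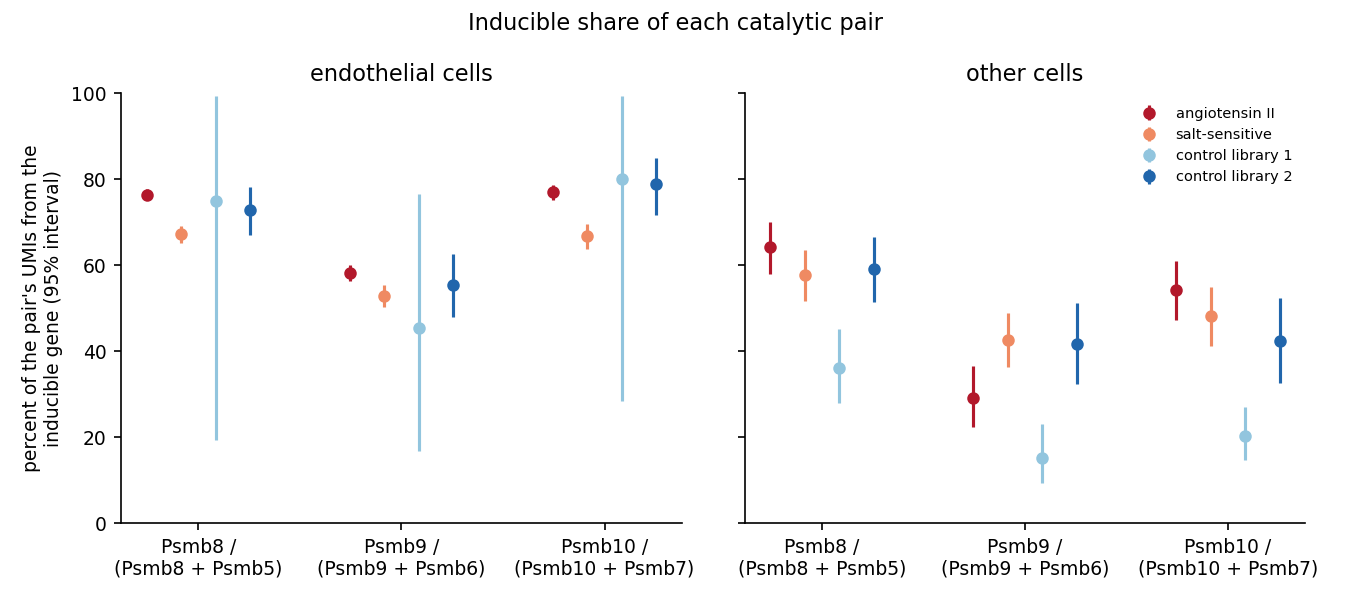
Percent of each catalytic pair's UMIs that come from the inducible gene, by library, in endothelial cells (left) and other cells (right), with 95% Clopper-Pearson intervals. In endothelial cells the salt-sensitive points for Psmb8 and Psmb10, at 67.2% and 66.8%, lie below the angiotensin II and control library 2 points, and control library 1 is lowest in all 3 pairs of the other cells.

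Medians of the other proteasome lists lay closer to 0. For angiotensin II over salt-sensitive endothelial cells the median log2 ratio was 0.12 over 11 other core subunits, which build the barrel. Of these, 1 of 11 lay at 0.5 or more (Psma1, 0.51), against 5.27% of all genes. The median was 0.01 over 5 assembly factors and 0.22 over 19 regulatory particle subunits and other activators. In that last list 3 of 19 lay at 0.5 or more, with Psmc4 highest at 0.69 and Psme4 lowest at -0.39. Its intervals lay above 0 for 11 genes, against 17.4% of all genes, and below 0 for 2. MHC class I chains and loading partners had a median of 0.62 over 16 genes, with 9 at 0.5 or more and 1 at -0.5 or less (5.27% and 9.85% of all genes). Among them were H2-T22 at 1.19 (1.06 to 1.42), the classical chains H2-K1 and H2-D1, both at 0.76, and B2m, their light chain, at 0.64 (0.61 to 0.68). The endoplasmic reticulum chaperone Hspa5 was at -0.59 (-0.70 to -0.49). Reads shared among the near-identical H2 genes make their counts uncertain.

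Most interferon-response genes had higher levels in angiotensin II endothelial cells than in those of the salt-sensitive library and control library 2. For angiotensin II over salt-sensitive, 28 interferon-response genes had a median of 0.43, with Igtp highest at 0.99 and Ifi27l2a lowest at -0.83. Of the 28, 26 lay above 0 (45.7% of all genes) and 12 at 0.5 or more (5.27% of all genes). Over control library 2, the same 28 genes had a median of 0.42 in angiotensin II endothelial cells, where the immunoproteasome genes had a median of 0.09. Of the 28, 27 lay above 0 (51.7% of all genes) and 14 had intervals above 0 (4.75% of all genes). In salt-sensitive endothelial cells over control library 2 their median was -0.11, with 12 of 28 above 0 (53.4% of all genes). Ifi27l2a was higher than control library 2 in both, at 1.14 (0.67 to 1.74) in angiotensin II and 1.97 (1.51 to 2.59) in salt-sensitive endothelial cells. The 14 upstream genes read, receptors, kinases and IRF factors, had medians of 0.07 in angiotensin II and -0.22 in salt-sensitive endothelial cells over control library 2.

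**Figure D4:**
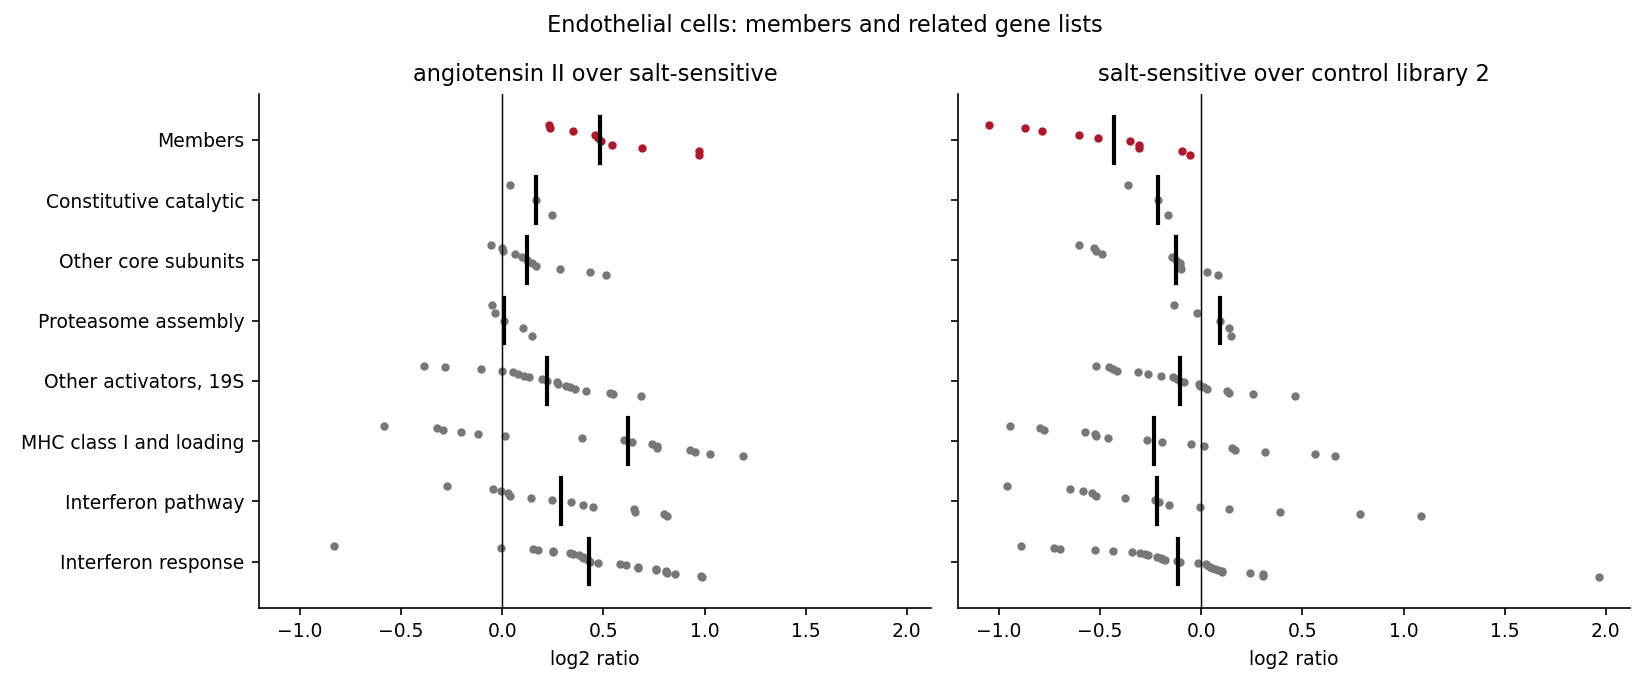
Log2 ratios in endothelial cells for the 10 genes (red) and for 7 related lists (grey), 1 point per gene with at least 20 UMIs and a black bar at each list's median. For angiotensin II over salt-sensitive the 10 genes (median 0.48), MHC class I (0.62) and interferon-response genes (0.43) lie right of the other core subunits (0.12).

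In both hypertension libraries the 10 genes were most abundant in endothelial cells led by peritubular capillary markers, and the libraries differed in how many of these they held. A cell was assigned to the marker list (capillary, arterial, glomerular or venous) that had most of its UMIs, with at least 2. Capillary markers led in 85.9% (angiotensin II), 59.6% (salt-sensitive) and 81.8% (control library 2) of endothelial cells, shares that depth and capture can move. The summed level was 2798 CPM (2752 to 2846) in capillary-led, 1672 (1539 to 1813) in arterial-led and 1277 (1117 to 1455) in glomerular-led angiotensin II cells. For salt-sensitive cells it was, in this order, 2236 (2174 to 2300), 1555 (1474 to 1639) and 944 (868 to 1025). In control library 2 it was 2763 (2575 to 2961) in capillary-led and 1204 (904 to 1571) in its 18 glomerular-led cells. Venous markers led in 8, 40 and 2 cells of these libraries, at 1341 (884 to 1951), 1706 (1494 to 1939) and 3924 (2196 to 6471) CPM, the last from 15 UMIs. The cells that no list led stood at 1554, 1704 and 3561 CPM, the last from 2 cells. The order capillary, arterial, glomerular was the same in both hypertension libraries, and the capillary-led cells also exceeded the glomerular-led cells in control library 2.

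Within capillary-led cells alone the difference between the hypertension libraries was smaller. The median log2 ratio of angiotensin II over salt-sensitive was 0.30, against 0.48 over all endothelial cells. In these cells 9 of the 10 genes lay above 0, where the median of all genes was -0.0076. Tap1 was at 0.85, Psmb10 at 0.79 and Psmb8 at 0.50, while Psme1, at 0.00, and Psme2, at 0.02, lay within 0.05 of 0. Salt-sensitive capillary-led cells over control library 2 had a median of -0.29, with Psmb10 and Tap1 both at -0.81 and Psme1 at 0.11, and angiotensin II over control library 2 a median of 0.05. For the summed genes the ratio of angiotensin II over salt-sensitive was 0.32 (0.28 to 0.37) in capillary-led, 0.10 (-0.04 to 0.24) in arterial-led and 0.44 (0.21 to 0.66) in glomerular-led cells. Whether these ratios differ between kinds of cell was not tested.

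Endothelial cells with more interferon-response UMIs had more UMIs of the 10 genes in each library that could be read. After thinning to 1000 UMIs, cells with 0 to 4, 5 to 9 and 10 or more interferon-response UMIs held on average 1.51, 2.32 and 3.06 UMIs of the 10 genes for angiotensin II. The averages were 1.2, 1.82 and 2.55 for salt-sensitive and 2.07 (1.57 to 2.68), 2.39 (2.0 to 2.83) and 3.23 (2.66 to 3.88) for control library 2. Single genes did not all follow. In control library 2, Psmb8 rose, at 0.39, 0.46 and 0.71, while Psmb9 did not, at 0.29, 0.32 and 0.17. For the 11 other core subunits the same cells gave 1.84, 2.34 and 2.52 for angiotensin II, 2.06, 2.25 and 2.32 for salt-sensitive and 2.36, 2.82 and 2.34 for control library 2. The median cell had 10 interferon-response UMIs in the angiotensin II library and 7 in the other two. At each of these 3 ranges the salt-sensitive average was below that of the other libraries shown. The ranges were set after the data were seen, since 97.3%, 93% and 95.8% of the cells had 2 or more such UMIs, and cells are not replicates.

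**Figure D5:**
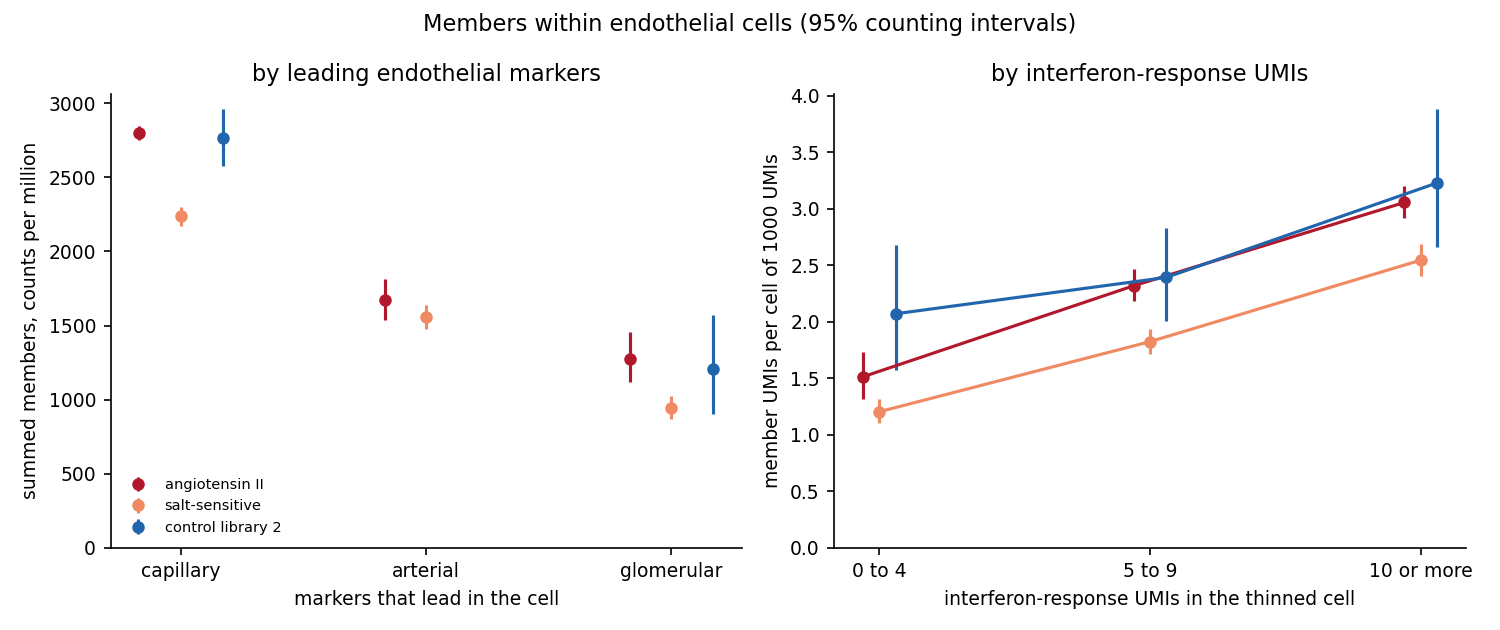
Left, summed level of the 10 genes in CPM by the marker list that leads in the endothelial cell. Right, average UMIs of the 10 genes per cell of 1000 UMIs by interferon-response UMIs in the cell, with 95% Poisson intervals in both panels. Of the kinds of cell drawn, those led by capillary markers are highest (2798, 2236 and 2763), venous-led cells are not drawn, and averages climb from left to right in all 3 libraries.

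In the other cells the hypertension libraries were near control library 2 and above control library 1. The median log2 ratio was 0.19 for angiotensin II and 0.06 for salt-sensitive cells over control library 2, where 2 and 1 of the 10 genes lay at 0.5 or more (9.8% and 8.31% of all genes). Those were Tapbp, at 0.71 (0.40 to 1.10) and 0.66 (0.37 to 1.03), and Psmb10 in angiotensin II, at 0.87 (0.45 to 1.5). Over control library 1 the medians were 1.07 and 1.06, with 9 and 8 genes at 0.5 or more, against 15% and 12.6% of all genes. Psmb8 was at 87.3 CPM (74.4 to 102) in angiotensin II, 65.8 (56.0 to 76.8) in salt-sensitive, 16.8 (12.3 to 22.4) in control library 1 and 73.0 (59.4 to 88.8) in control library 2 other cells. Nlrc5 was at 24.1, 23.3, 23.7 and 34.3 CPM, with intervals that all overlapped.

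Other cell types moved with these values. In control library 2, 75 of the 1882 other cells had 2 or more leukocyte-marker UMIs, and these 75 cells held 285 of the 630 UMIs of the 10 genes (45.2%), at 1977 CPM (1754 to 2220). In the remaining libraries such cells held 4.01% to 8.59% of those UMIs. Of 12 leukocyte markers, 10 could be read in both control libraries, 6 in the angiotensin II library and 5 in the salt-sensitive library. Those that could be read summed to 1901 CPM in control library 2 other cells, led by C1qb, a macrophage gene. They summed to 179, 166 and 302 CPM in the angiotensin II, salt-sensitive and control library 1 other cells, so these sums do not cover the same genes. Without these cells the summed level in control library 2 was 281 CPM in place of 460. Psmb8 then made up 37.7% of its pair in control library 2, in place of 59.2%. With such cells left out of all libraries, the median log2 ratio over control library 2 was 0.76 for angiotensin II and 0.81 for salt-sensitive. With fewer markers to read, leukocytes may have been left out less fully in the hypertension libraries. The part of this in the shares and ratios was not tested.

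Endothelial transcripts in the other cells moved in the opposite sense. The 6 further endothelial markers summed to 1809 CPM in angiotensin II, 1723 in salt-sensitive, 772 in control library 1 and 800 in control library 2 other cells. Other cells with no UMI of the 4 rule genes and fewer than 2 of those markers held the 10 genes at 367 CPM (320 to 419), 350 (303 to 403), 236 (213 to 262) and 437 (396 to 480) in the same order. Among such cells the median log2 ratio over control library 1 was 0.40 for angiotensin II and 0.56 for salt-sensitive, and over control library 2 it was -0.26 and -0.49.

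Between the hypertension libraries the other cells had a median log2 ratio of 0.04, with 2 genes at 0.5 or more and 1 at -0.5 or less (4.78% and 4.53% of all genes). Psmb9 was lower in angiotensin II other cells, at 25.7 CPM (19 to 34.1; 48 UMIs) against 44.1 (36.2 to 53.3; 108 UMIs), a log2 ratio of -0.68 (-1.30 to -0.28), while in endothelial cells its ratio was 0.47. Its share of Psmb9 and Psmb6 was 29.1% (22.3 to 36.7) in angiotensin II and 42.5% (36.4 to 48.9) in salt-sensitive other cells. In other cells without endothelial markers the ratio was 0.029, from 19 UMIs in all. Tap1 at 0.54 (0.01 to 1.41) and Psmb10 at 0.51 (0.17 to 0.96) were the 2 genes past 0.5.

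Genes outside the list whose levels most resembled its mean were found over the 8 values of 4 libraries and 2 cell classes. Among 5087 genes the closest were Arpc3, a subunit of the actin-branching complex, with a Pearson correlation of 0.998, Dhrs7, Gabarap, Cnbp and Fam43a, the last at 0.993. The 8 values share libraries and are dominated by the gap between endothelial and other cells, so the correlations are descriptive. Arpc3 stood at 502, 324, 116 and 493 CPM in the endothelial cells of the angiotensin II, salt-sensitive, control library 1 and control library 2 libraries. Of the members themselves, each of which is part of the mean, Psmb8 was closest to it, at 0.995. Nlrc5 was farthest, at 0.43, and Tap1 next, at 0.72. Both had 0 UMIs in control library 1 endothelium, whose few UMIs enter all these correlations, and the part of this in the low values was not tested.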

How the data were processed

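Kidney cells captured for CD31 and podoplanin were profiled with a droplet-based 3' kit, per the labels' protocols. The authors deposited UMI counts, 1 whole number for each gene in each cell, with no sign of scaling in the values. Cell Ranger 7.0.0 and Seurat 4.1, with mm10 as the build, are named in the submitters' processing notes. The counting options and the cell filter are not given in the sources used here. The fewest genes of any cell were 288 to 347 by library, and no further cells were removed.

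Counts were summed per library and cell class and scaled to an equal total (CPM) over the 11049 shared genes, which held 98.7% to 99.2% of UMIs. Log2 ratios used a pseudocount of 5 CPM, which understates changes of low genes. Intervals of ratios are exact conditional binomial intervals of the plain ratio, without the pseudocount, so a value for a low gene can lie off their centre, and CPM has Poisson and shares Clopper-Pearson intervals at 95%. A gene was counted in a comparison with at least 20 UMIs over both libraries, and a count of 0 was taken to allow 3. A gene was called at a log2 ratio of 0.5 or more (or -0.5 or less) between libraries, and of 1 or more between cell classes. Thinning used 1000 UMIs per cell and left out shallower cells. The ratio code was tested on simulated counts. Python 3.11.15, numpy 2.4.6, scipy 1.17.1, pandas 2.3.3 and matplotlib 3.10.9 were used.

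The 10 genes, the related lists and the cell markers were chosen with earlier results of these data known. All 10 are reported, while 2 of 3 motifs searched are not reported here. From the related lists the text names the catalytic partners and, for some lists, the highest or lowest genes. The 5 genes most like the 10 are those with the highest correlation at a mean of 50 CPM or more. H2-K1, H2-D1 and B2m were named in addition, after their values were seen. The alternatives tried were another pseudocount, no minimum, other endothelial rules, leaving out cells with leukocyte or tubule markers, a mean over cells, thinning, median-of-ratios scaling and the table that joins both hypertension libraries.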

Additional observations from a re-analysis of the deposited data

How the results depend on the processing

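Of 264 recomputed medians, counts and pair shares under these alternatives, 234 stayed within the counting interval (counts within 1.5 times), 28 moved and 2 reversed. For a median, that interval ran from the median of the genes' lower bounds to the median of their upper bounds. Over control library 1 endothelium it was wide, at -0.24 to 3.47 for angiotensin II and -0.76 to 2.90 for salt-sensitive. Medians from 0.75 to 2.26 and from 0.20 to 1.88 therefore counted as staying there, so the 234 say little about those comparisons. For all 10 genes in endothelial cells, the median of angiotensin II over salt-sensitive ran from 0.30 to 0.51, over control library 2 from 0.05 to 0.13, and of salt-sensitive over control library 2 from -0.44 to -0.29. Capillary-led cells, chosen after seeing the data, gave 0.30 for the first of these, 3 genes at -0.5 or less for the last (a mean over cells also gave 3), and pair shares in the salt-sensitive library of 70.5% for Psmb8, 58.9% for Psmb9 and 71.5% for Psmb10, and of 100% for Psmb10 in control library 1.

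A stricter endothelial rule moved the other-cell medians over control library 1 to 1.88 (angiotensin II) and 1.73 (salt-sensitive), the endothelial over other medians to 1.49 and 1.29, the Psmb9 share to 36.8% in angiotensin II other cells and 16.7% in control library 1 endothelium, and the Psmb10 share to 56.8% in salt-sensitive other cells. A looser rule gave 0.75 for salt-sensitive other cells over control library 1. Cells with under 1% tubule markers gave 2.05 there, and endothelial over other medians of 1.08, 0.41 and 1.07 in the angiotensin II, salt-sensitive and control library 2 cells. Other cells without endothelial transcripts, chosen after seeing the data, gave 0.40 and 0.56 over control library 1 and -0.49 for salt-sensitive over control library 2. Without leukocyte-marker cells the values over control library 2 were 0.76 and 0.81, although fewer of these markers could be read in the hypertension libraries. In other cells the Psmb8 share was then 37.7% and the Psmb9 share 23.1% in control library 2, and the Psmb9 share 7.48% in control library 1.

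Median-of-ratios scaling, which shifts all genes by 0.16 and 0.28 in the endothelial comparisons over control library 1 and, between cell classes, by -0.26, -0.22, 1.97 and 0.64 (angiotensin II, salt-sensitive, control library 1 and 2), gave endothelial over other medians of 1.55 in control library 2 and -0.0068 in control library 1, where thinning gave -1.20 over 6 genes. Single genes reversed almost only in control library 1 endothelium. There, Erap1 over other cells was -2.36 (stricter rule), -2.33 (thinned) and -0.40 (scaling). Angiotensin II over it gave -0.089 (stricter rule) and -0.28 (capillary-led) for Psme1 and -0.54 (mean over cells) and -0.44 (capillary-led) for Tapbp. Salt-sensitive over it gave -0.54 (stricter rule), -0.15 (few tubule markers), -0.055 (thinned) and -0.54 (capillary-led) for Psmb10 and -0.98 (mean over cells) and -0.86 (capillary-led) for Tapbp. In other cells without endothelial transcripts, Tap2 in angiotensin II over control library 1 was -0.18 and Psmb9 in angiotensin II over salt-sensitive 0.029. The cause was not tested in any of these. No paired analysis was possible because each group is 1 library.

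Counting depth limits the control side: 38 UMIs of the 10 genes in control library 1 and 879 in control library 2 endothelium. Pooled kidneys give no spread between mice, so no interval here covers it.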
